A study of Mus musculus with 20 samples.

Results

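The 42 genes described here carry out the use of fatty acids as fuel in skeletal muscle: their uptake, their release from stored triglyceride, their activation to acyl-CoA, their entry into mitochondria and their oxidation in mitochondria and peroxisomes. They are genes of the pathway chosen by name, with earlier results of these data known, and were grouped as 5 uptake, 3 lipolysis, 5 activation, 6 mitochondrial entry, 19 mitochondrial oxidation and 4 peroxisomal genes. All 42 symbols were matched among the 55416 genes of the count table, and all 42 were among the 14471 genes that passed the filter on low counts, with 49 or more reads in every library. Quadriceps muscle came from old male C57BL/6J mice (26 to 28 months), of wild type, 3 h after 1 intramuscular injection and after 4 h of fasting. Control mice (n = 10) received 50 µL of 0.9% saline. Secretome mice (n = 10) received 50 µL of a product diluted in saline, which partially differentiated human embryonic stem cells had secreted. RNA was taken from whole muscle, so fewer cells of a type and less RNA per cell cannot be told apart.

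Long-chain fatty acids reach the muscle fiber from the blood, where lipoprotein lipase frees them from triglyceride, or from lipid droplets inside the fiber, where a chain of lipases frees them step by step. Acyl-CoA synthetases trap them as acyl-CoA, and the carnitine shuttle carries the acyl group across the inner mitochondrial membrane, a step held back by malonyl-CoA. In the matrix, rounds of dehydrogenation, hydration, dehydrogenation and thiolysis release acetyl-CoA, and electron transfer flavoprotein passes the electrons to the respiratory chain. Slow and IIa fibers are known to hold more of this machinery than IIb fibers, and fasting is known to raise many of its transcripts through the nuclear receptors of the PPAR family.

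The libraries are numbered 1 to 20 in their labels, with control mice 1 to 10 as libraries 1 to 10 and secretome mice 1 to 10 as libraries 11 to 20. Nothing in the labels calls these numbers a batch, but the libraries differed along them. Titin (Ttn) took 7.02% to 11.03% of the counts in control mice 1 to 5 and 14.2% to 14.7% in secretome mice 6 to 10, against 16.4% to 21.1% in control mice 6 to 10 and 17.8% to 20.7% in secretome mice 1 to 5. The following comparisons were therefore made with edgeR's quasi-likelihood test: all 20 libraries, the inner comparison of secretome mice 1 to 5 against control mice 6 to 10 (libraries 6 to 15), and the outer comparison of secretome mice 6 to 10 against control mice 1 to 5. The difference between the outer and the inner log2 fold change was tested as well. Every control library has a lower number than every secretome library, so treatment and library number cannot be told apart in any comparison. The inner groups overlapped in their Ttn share and the outer groups did not. The comparison of all 20 shares its mice with both of the others. Totals were 13286983 to 22987237 counts per library, and the 8 myofiber markers, such as Acta1 and Ckm, summed to 126300 to 324300 CPM, that is counts scaled by the effective library size, so the labelled tissue's own markers were present. The 42 genes together took 0.302% to 0.599% of the counts of a library.

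The most abundant of the 42 per kilobase of exon was Fabp3, the fatty acid binding protein of heart and muscle, at 144 CPM per kilobase in control muscle. Acadvl followed at 65.5, Acacb at 62.9, Acadl at 59.7, Crat at 59.2 and Pnpla2 at 58.5 CPM per kilobase, and these 5 lay within each other's SD. At the other end were Acsl5 at 1.157, Acad10 at 1.43 and Ehhadh at 2.19 CPM per kilobase, so the set spanned a wide range of levels. Over the 20 libraries the median coefficient of variation was 23.1% for the 42 genes and 24.1% for all genes tested. Fabp3 was the most variable of the 42, with a coefficient of variation of 51.5% and a 6.69-fold range between its lowest and highest library. Acot2, a mitochondrial acyl-CoA thioesterase, had a 5.01-fold range. Eci2 was the steadiest by range, at 1.57-fold.

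**Figure D1:**
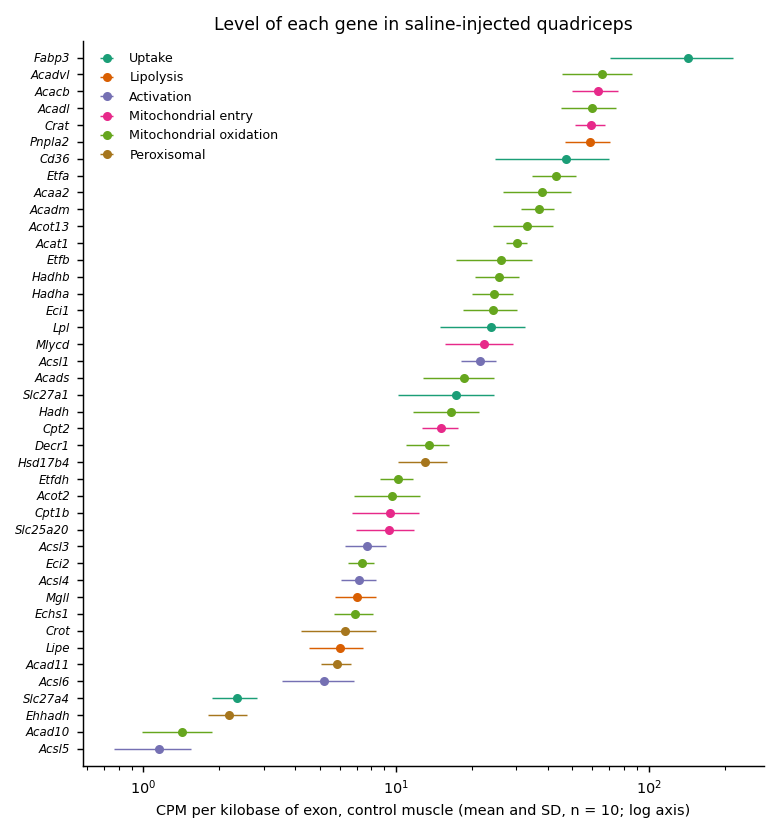
Level of each of the 42 genes in saline-injected quadriceps, as CPM per kilobase of exon on a log axis, where points are means and bars are SD over the 10 control mice and colors mark the 6 steps. Fabp3 stands apart at 144 CPM per kilobase, and Acsl5 is the lowest.

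The 42 genes were divided when all 20 libraries were compared. Of these, 25 had a positive and 17 a negative log2 fold change, with a median of 0.065 beside -0.035 for all 14471 genes, of which 44.1% were positive. Hadhb, Etfdh and Acsl4 were higher and Lipe was lower in secretome mice at an unadjusted p below 0.05, that is 3 higher and 1 lower against 6.52% and 9.21% of all genes. After Benjamini-Hochberg adjustment of edgeR's quasi-likelihood p-values over all genes, 0 of the 42 passed the 5% false discovery rate, which 1 gene, or 0.00691%, of all genes did, and the smallest adjusted p among the 42 was 0.226 for Lipe. Without control mouse 3, 0 of the 42 were higher at an unadjusted p below 0.05, and the same held without control mouse 9, secretome mouse 6 or secretome mouse 8. The count was 1 without control mouse 1, control mouse 8 or secretome mouse 4, and the lower genes numbered 2 without control mouse 1 or 7.

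The inner and the outer comparison pointed in different directions for most of the set. In the inner comparison 34 of the 42 were lower in secretome mice (54% of all genes were), with a median log2 fold change of -0.15 beside -0.025 for all genes. At an unadjusted p below 0.05, 3 of the 42 were lower (3.34% of all genes) and 0 were higher (2.43% of all genes), and the 3 were the complete set of lipolysis genes. The count lower was 6 by limma-voom and 7 in an edgeR fit of only the 10 libraries of this comparison, which goes beyond the lipolysis genes. By edgeR 0 of the 42 passed the 5% false discovery rate, and 0% of all genes did, with a smallest adjusted p of 0.789. Without control mouse 8 the count of 3 dropped to 1.

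In the outer comparison 35 of the 42 were higher in secretome mice (44.6% of all genes were), with a median log2 fold change of 0.25 beside -0.047 for all genes. At an unadjusted p below 0.05, 14 of the 42 were higher (9.56% of all genes) and 0 were lower (11.6% of all genes). The 14 comprised 1 activation, 4 mitochondrial entry, 8 mitochondrial oxidation and 1 peroxisomal gene, and no uptake or lipolysis gene. By edgeR Acadl alone of the 42 passed the 5% false discovery rate, which 3.68% of all genes did, 1.64% as higher. DESeq2 called 3 of the 42 (Acadl, Cpt1b and Etfdh) among 1148 of all genes, and limma-voom and the fit of only the 10 libraries of this comparison called 0. The 14 became 6 without secretome mouse 6, 8 without control mouse 3 and 9 without control mouse 1, and 22 without control mouse 2. The count past the false discovery rate was 4 without control mouse 2, 2 without control mouse 4 or 9, and 0 without control mouse 3, secretome mouse 6, 9 or 10.

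The test of the difference between the comparisons gave a positive value for 37 of the 42 (48.3% of all genes), with a median of 0.40 on the log2 scale beside -0.015 for all genes. At an unadjusted p below 0.05, 15 of the 42 had a more positive outer fold change (5.51% of all genes) and 0 a more negative one (5.59% of all genes). By edgeR 0 of the 42 passed the 5% false discovery rate, which 0.0553% of all genes did, and the smallest adjusted p was 0.165 for Acadl. The 15 became 7 without secretome mouse 6 or 9 and 9 without control mouse 1, 3 or 5 or secretome mouse 2. By set means, secretome mice 6 to 10 were above secretome mice 1 to 5 in 38 of the 42 genes (90.5%, against 52.6% of all genes), with a median log2 ratio of 0.37 beside 0.013. Control mice 6 to 10 were above control mice 1 to 5 in 27 of the 42 (64.3%, against 47% of all genes), with a median log2 ratio of 0.056 beside -0.023. Secretome mice 6 to 10 had the highest of the 4 means in 30 of the 42 genes (71.4%, against 21.3% of all genes).

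**Figure D2:**
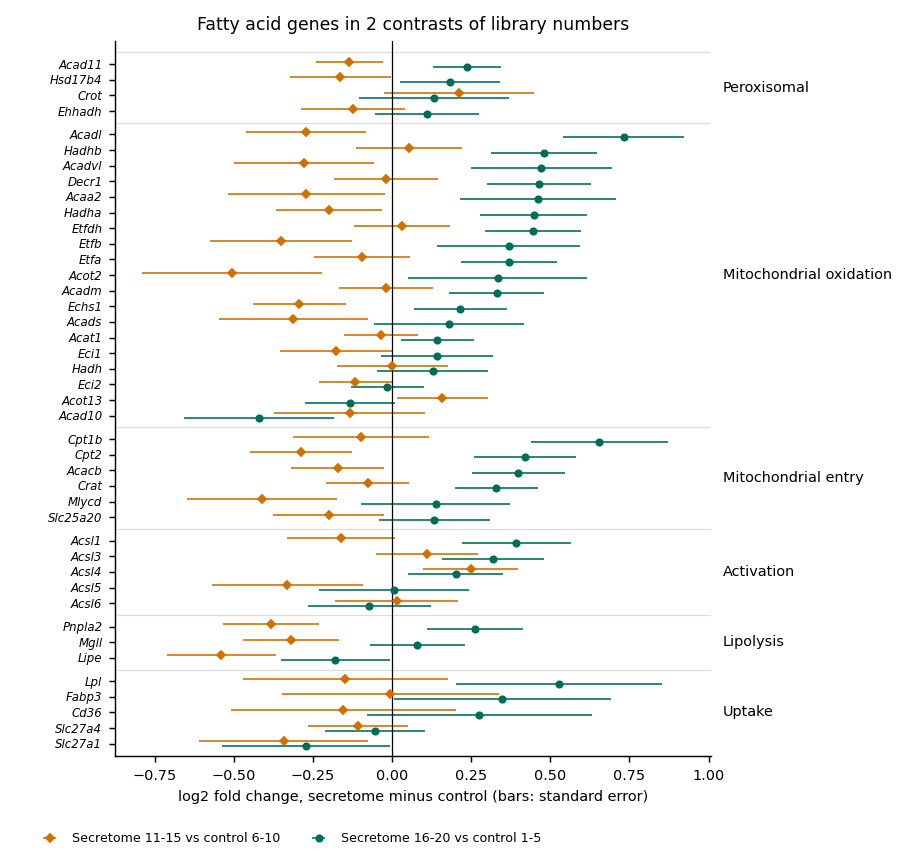
Log2 fold change, secretome minus control, of each of the 42 genes in the inner comparison (orange diamonds, libraries 11 to 15 against 6 to 10) and the outer comparison (green circles, libraries 16 to 20 against 1 to 5), with standard errors as bars and genes ordered by step. The mitochondrial entry and oxidation genes sit mostly left of 0 in the inner and right of 0 in the outer comparison, and Acadl has the largest outer value, 0.73.

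Apart from Slc27a4 (coefficient of variation 17.1%), uptake genes varied widely between mice, and none of the 5 separated the treatments. Of the 5, 3 had a positive log2 fold change over all 20 libraries, with a median of 0.079, and 0 had an unadjusted p below 0.05 in any of the 4 tests. Lpl, which encodes lipoprotein lipase, ranged over 136, 239.7 and 366 CPM (lowest, median and highest) in controls and 129, 249 and 575 CPM in secretome mice. The highest value belonged to secretome mouse 6 and the lowest to secretome mouse 3, so the treated range enclosed the control range. The log2 fold change of Lpl was 0.23 ± 0.24 (SE) over all 20 libraries, -0.15 ± 0.32 in the inner and 0.53 ± 0.32 in the outer comparison, with adjusted p of 0.667, 0.914 and 0.365 by edgeR.

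Cd36, the membrane receptor that takes up long-chain fatty acids, was at 169 ± 80.5 CPM in controls and 179 ± 66.996 CPM in secretome mice (SD, n = 10 each). Fabp3 was at 118 ± 60.2 CPM and 138 ± 72.9 CPM. Both differences were smaller than 1 SD. Fabp3 differed more within a treatment than between treatments: its mean was 146 ± 73.4 CPM in control mice 1 to 5, 90.3 ± 28.7 in control mice 6 to 10, 90.003 ± 40.5 in secretome mice 1 to 5 and 186 ± 67.8 in secretome mice 6 to 10 (SD, n = 5 each). Slc27a1, a fatty acid transport protein of muscle, was negative in both the inner and the outer comparison, at -0.34 ± 0.27 and -0.27 ± 0.27 on the log2 scale. Its highest value, 206 CPM, was that of control mouse 2, and without that mouse the outer log2 fold change was 0.13 and that over all 20 libraries went from -0.31 to -0.13. The adjusted p over all 20 libraries was 0.415 by edgeR. Slc27a4, another transport protein, was at 10.4 ± 2.12 and 9.83 ± 1.27 CPM.

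Lipolysis had the most negative median of the 6 steps over all 20 libraries and in the inner comparison. All 3 genes had a negative log2 fold change over all 20 libraries, with a median of -0.13, and in the inner comparison, with a median of -0.38. In the outer comparison 2 of the 3 were positive and the median was 0.079. None of the 3 passed the 5% false discovery rate in any test by edgeR, while all 3 had an unadjusted p below 0.05 in the inner comparison.

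Lipe encodes hormone-sensitive lipase, which cleaves diacylglycerol. Lipe was at 24.4, 37.8, 38.1, 52.3 and 26.7 CPM in control mice 1 to 5 and at 34.5, 34.5, 45.2, 30.5 and 28.4 CPM in control mice 6 to 10. It was at 24.5, 19.9, 23.1, 27.1 and 24.4 CPM in secretome mice 1 to 5 and at 35.2, 24.8, 30.5, 32.7 and 35.1 CPM in secretome mice 6 to 10. All secretome mice 1 to 5 were below all control mice 6 to 10, which held for 1.09% of all genes, and Lipe was the only one of the 42 genes whose groups did not overlap in the inner comparison. In the outer comparison 0 of the 42 were separated in this way (2.51% of all genes were as higher and 2.34% as lower). The outer groups of Lipe overlapped, with control mouse 1 at the bottom and control mouse 4 at the top. The log2 fold change of Lipe was -0.34 ± 0.13 (SE) over all 20 libraries, -0.54 ± 0.17 in the inner and -0.18 ± 0.17 in the outer comparison, with adjusted p of 0.226, 0.789 and 0.578 by edgeR. The inner and outer values did not differ past the threshold (difference 0.36 ± 0.24, adjusted p 0.622).

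Pnpla2 encodes adipose triglyceride lipase, which removes the first fatty acid from triglyceride. Pnpla2 was at 154, 197, 142, 213 and 123 CPM in control mice 1 to 5 and at 145, 198, 233, 190.4 and 169 CPM in control mice 6 to 10. It was at 157, 130.1, 129, 146 and 155 CPM in secretome mice 1 to 5 and at 229, 179, 171, 236 and 179 CPM in secretome mice 6 to 10. Control mouse 6 was the only control of its group inside the range of secretome mice 1 to 5, and secretome mice 6 to 10 were all above secretome mice 1 to 5. Its log2 fold change was -0.38 ± 0.15 (SE) in the inner comparison and 0.26 ± 0.15 in the outer comparison, and near 0 over all 20 libraries, at -0.045 ± 0.13. The difference between the comparisons was 0.64 ± 0.22, with an adjusted p of 0.240 by edgeR. Mgll, the monoacylglycerol lipase that ends the chain, was at 40.4, 40.7, 38.3, 37.7 and 39.8 CPM in control mice 6 to 10 and at 27.3, 23.2, 30.8, 36.2 and 40.2 CPM in secretome mice 1 to 5. Its inner log2 fold change was -0.32 ± 0.15 with an adjusted p of 0.789 by edgeR, and the outer one was 0.079 ± 0.15.

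Adipocytes also express these lipases, and Lipe is itself on the list of 10 adipocyte markers. All 10 of these markers were detected and all 10 had a negative log2 fold change in the inner and in the outer comparison (medians -0.55 and -0.73), with 0 past the false discovery rate by edgeR. Their summed level was 149.5 to 213 CPM in control mice 6 to 10 and 81.4 to 172 CPM in secretome mice 1 to 5, and 137.5 to 529 CPM in control mice 1 to 5 and 145 to 217 CPM in secretome mice 6 to 10. Their part in the lower lipase values was not tested. Exons of Lipe overlap an antisense gene, 4732471J01Rik, over 453 bases, and those of Mgll overlap Gm26588 over 90 bases. The libraries were directional, but the strand setting of the counting is not given in the sources used here.

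Activation genes had log2 fold changes of either sign, and differences between isoforms were not tested. Of the 5 long-chain acyl-CoA synthetases, 3 had a positive and 2 a negative log2 fold change over all 20 libraries (median 0.14), and 1 had an unadjusted p below 0.05, with 0 past the false discovery rate by edgeR. Acsl4, the isoform that prefers arachidonic acid, was higher in 9 of 10 secretome mice than the control median. Acsl4 was at 45.2, 27.6, 34.6, 36.9 and 43.5 CPM in control mice 1 to 5 and at 40.1, 39.96, 34.1, 37.2 and 48.8 CPM in control mice 6 to 10. It was at 57.04, 49.6, 40.3, 46.7 and 44.2 CPM in secretome mice 1 to 5 and at 47.4, 46.8, 49.7, 29.3 and 42.8 CPM in secretome mice 6 to 10. Secretome mouse 9 stood below the other 9 secretome mice, and without it the groups still overlapped. The log2 fold change of Acsl4 was 0.23 ± 0.11 (SE) over all 20 libraries, 0.25 ± 0.15 in the inner and 0.20 ± 0.15 in the outer comparison, with an adjusted p of 0.299 over all 20 by edgeR.

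Acsl3, an isoform of the endoplasmic reticulum and lipid droplets, had the same sign in both comparisons, at 0.11 ± 0.16 and 0.32 ± 0.16 on the log2 scale, and was at 33.6 ± 6.25 CPM in controls and 38.8 ± 6.25 CPM in secretome mice (SD, n = 10 each). Acsl1, the main isoform of muscle and fat, was at 21.5 CPM per kilobase in controls, above the other 4 isoforms. It was at 206 ± 42.4 CPM in secretome mice 1 to 5 and 289.6 ± 69.1 CPM in secretome mice 6 to 10 (SD, n = 5 each), against 229.8 ± 21.8 and 221 ± 48.6 CPM in their controls. Its log2 fold change was -0.16 ± 0.17 in the inner and 0.39 ± 0.17 in the outer comparison, where the adjusted p was 0.188 by edgeR. Acsl5 and Acsl6, the scarcest isoforms per kilobase, had log2 fold changes of -0.15 ± 0.17 and -0.022 ± 0.17 over all 20 libraries.

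Mitochondrial entry genes lay on 1 side of 0 in the inner and on the other side in the outer comparison. All 6 were lower in the inner comparison (median log2 fold change -0.19) and all 6 were higher in the outer comparison (median 0.36), where Cpt1b, Cpt2, Crat and Acacb had an unadjusted p below 0.05. The difference between the comparisons was positive for all 6, with a median of 0.56 and an unadjusted p below 0.05 for the same 4 genes. None passed the 5% false discovery rate by edgeR, with a smallest adjusted p of 0.0901 in the outer comparison and 0.220 for the difference. Over all 20 libraries 4 of the 6 were positive and the median was 0.11.

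Cpt1b encodes the muscle form of carnitine palmitoyltransferase 1, the outer-membrane enzyme that malonyl-CoA inhibits. Cpt1b was at 28.9, 27.3, 15.4, 33.3 and 35.1 CPM in control mice 1 to 5 and at 35.01, 42.3, 40.1, 18.8 and 43.8 CPM in control mice 6 to 10. It was at 36.4, 27.9, 27.5, 36.2 and 40.01 CPM in secretome mice 1 to 5 and at 52.3, 34.8, 35.1, 51.6 and 46.7 CPM in secretome mice 6 to 10. Control mouse 3 and control mouse 9 were the lowest of the 20. The log2 fold change of Cpt1b was 0.65 ± 0.22 (SE) in the outer comparison, with an adjusted p of 0.0901 by edgeR, and -0.10 ± 0.22 in the inner one. Its exons overlap those of Gm44502, a gene on the same strand, over 575 bases, so its counts may share reads with that gene.

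Cpt2, the inner-membrane enzyme that restores acyl-CoA in the matrix, had the smallest p of this step for the difference between comparisons. Cpt2 was at 28.5, 47.6, 32.9, 38.5 and 34.4 CPM in control mice 1 to 5 and at 38.6, 41.2, 37.8, 28.2 and 34.5 CPM in control mice 6 to 10. It was at 28.2, 25.6, 25.7, 35.1 and 33.3 CPM in secretome mice 1 to 5 and at 59.7, 35.8, 37.9, 57.7 and 52.01 CPM in secretome mice 6 to 10. Secretome mice 6, 9 and 10 were above every other mouse, and all secretome mice 6 to 10 were above all secretome mice 1 to 5. The outer log2 fold change was 0.42 ± 0.16 (SE), the inner one -0.29 ± 0.16, and their difference 0.71 ± 0.23 with an adjusted p of 0.220 by edgeR. Crat, which moves acetyl groups between CoA and carnitine, was at 305 ± 22.02 and 333 ± 56.7 CPM in control mice 1 to 5 and 6 to 10, and at 316 ± 28.01 and 383 ± 64.8 CPM in secretome mice 1 to 5 and 6 to 10 (SD, n = 5 each). Acacb makes the malonyl-CoA that inhibits Cpt1b, and Mlycd removes it. Acacb was higher in the outer comparison by 0.40 ± 0.15 on the log2 scale, with an adjusted p of 0.125 by edgeR, while Mlycd was at 0.14 ± 0.24. Acacb was at 531 ± 112 and 681 ± 91.9 CPM in control mice 1 to 5 and 6 to 10 (SD, n = 5 each). It was at 605 ± 51.7 and 700 ± 140 CPM in secretome mice 1 to 5 and 6 to 10. The inhibitor's producer and its remover had the same sign in the outer comparison, and both were negative in the inner one, at -0.17 ± 0.15 and -0.41 ± 0.24. Slc25a20, the carnitine carrier, was at -0.20 ± 0.18 in the inner and 0.13 ± 0.18 in the outer comparison.

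Mitochondrial oxidation, the largest step, held Acadl, the only gene of the 42 past the false discovery rate by edgeR. Of its 19 genes, 15 were lower in the inner comparison (median log2 fold change -0.13) and 16 were higher in the outer comparison (median 0.33), where 8 had an unadjusted p below 0.05 and 1 passed. The difference was positive for 17 of the 19, with a median of 0.46 and an unadjusted p below 0.05 for 8. Over all 20 libraries 12 of the 19 were positive, the median was 0.073 and 2, Hadhb and Etfdh, had an unadjusted p below 0.05.

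Acadl encodes long-chain acyl-CoA dehydrogenase, which opens the cycle for long acyl chains. Acadl was at 109, 106, 66.9, 138 and 94.2 CPM in control mice 1 to 5 and at 123, 153, 138, 104 and 165 CPM in control mice 6 to 10. It was at 130.1, 83.97, 86.7, 123 and 142 CPM in secretome mice 1 to 5 and at 229, 151, 153, 184 and 138 CPM in secretome mice 6 to 10. Secretome mouse 6 was the highest of the 20 and control mouse 3 the lowest, and the outer groups overlapped only through control mouse 4, which was just above secretome mouse 10. In the outer comparison Acadl rose by 0.73 ± 0.19 (SE) on the log2 scale, with an adjusted p of 0.0360 by edgeR. The adjusted p was 0.10 without control mouse 3, 0.110 without secretome mouse 6, 0.0848 without secretome mouse 9 and 0.0509 without secretome mouse 10. It was 0.142 in an edgeR fit of only the 10 libraries of this comparison, 0.065 by limma-voom and 0.00588 by DESeq2. In the inner comparison Acadl was at -0.27 ± 0.19 (adjusted p 0.796), over all 20 libraries at 0.25 ± 0.17 (adjusted p 0.472), and the difference between comparisons was 1.00 ± 0.27 (adjusted p 0.165).

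The other chain-length dehydrogenases had smaller outer values. Acadvl, for very long chains, was at 0.47 ± 0.22 (SE) on the log2 scale, Acadm, for medium chains, at 0.33 ± 0.15, and Acads, for short chains, at 0.18 ± 0.24, with adjusted p of 0.225, 0.206 and 0.696 by edgeR. Acadvl was at 164 ± 72.4 CPM in control mice 1 to 5 and 227 ± 68.2 CPM in secretome mice 6 to 10, and at 188 ± 31.6 and 155 ± 12.4 CPM in the inner groups (SD, n = 5 each). Its highest values were those of secretome mouse 9, control mouse 2 and secretome mouse 6, at 315, 289 and 284 CPM, so 1 control lay among them. Acad10, a member of the same family at 1.43 CPM per kilobase, had the opposite sign in the outer comparison, at -0.42 ± 0.24, and was at -0.13 ± 0.24 in the inner one (0.024 without control mouse 6), with an adjusted p of 0.407 over all 20 libraries by edgeR.

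Hadha and Hadhb encode the 2 subunits of the mitochondrial trifunctional protein, which carries out the last 3 reactions on long chains. Hadhb was at 156, 197, 111, 219 and 154 CPM in control mice 1 to 5 and at 182, 188, 177, 120.3 and 188 CPM in control mice 6 to 10. It was at 187, 156, 148, 199 and 197 CPM in secretome mice 1 to 5 and at 302, 201, 219, 243 and 203 CPM in secretome mice 6 to 10. Secretome mice 6 to 10 held the highest value, and control mouse 3 and control mouse 9 the 2 lowest. The log2 fold change of Hadhb was 0.28 ± 0.13 (SE) over all 20 libraries, with an adjusted p of 0.297 by edgeR, 0.052 ± 0.17 in the inner and 0.48 ± 0.17 in the outer comparison. Hadha was at 214 ± 40.3 CPM in controls and 236 ± 59.7 CPM in secretome mice (SD, n = 10 each), with log2 fold changes of 0.14 ± 0.14, -0.20 ± 0.17 and 0.45 ± 0.17 in the same order. The outer values of the 2 subunits were within 1 SE of each other. Their genes start 272 bases apart on opposite strands and share their upstream region.

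Etfdh passes the electrons of the flavoprotein Etfa and Etfb to ubiquinone. Etfdh was at 70.6, 85.3, 60.4, 97.8 and 66.02 CPM in control mice 1 to 5 and at 82.3, 86.2, 71.5, 68.6 and 76.9 CPM in control mice 6 to 10. It was at 82.9, 71.5, 64.03, 89.3 and 86.4 CPM in secretome mice 1 to 5 and at 142, 80.6, 89.4, 111 and 94.998 CPM in secretome mice 6 to 10. Secretome mouse 6 was the highest and secretome mouse 9 the next, and control mouse 3 the lowest. Its log2 fold change was 0.25 ± 0.12 (SE) over all 20 libraries, with an adjusted p of 0.304 by edgeR, 0.032 ± 0.15 in the inner and 0.45 ± 0.15 in the outer comparison. Etfa and Etfb were at 0.37 ± 0.15 and 0.37 ± 0.23 in the outer and -0.10 ± 0.15 and -0.35 ± 0.23 in the inner comparison.

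Decr1, the dienoyl-CoA reductase needed for polyunsaturated fatty acids, was at 52.6 ± 10.2 CPM in controls and 62.1 ± 14.5 CPM in secretome mice (SD, n = 10 each), and 8 of 10 secretome mice were above the control median. Its log2 fold change was 0.24 ± 0.13 over all 20 libraries and 0.46 ± 0.16 in the outer comparison, with adjusted p of 0.370 and 0.111 by edgeR. Echs1, the short-chain enoyl-CoA hydratase, was at -0.29 ± 0.15 in the inner and 0.22 ± 0.15 in the outer comparison, and the difference of 0.51 ± 0.21 had an adjusted p of 0.350. The thiolase Acaa2 and the thioesterase Acot2 had outer values of 0.46 ± 0.25 and 0.33 ± 0.28 and inner values of -0.27 ± 0.25 and -0.51 ± 0.28. Acot2 has a near-identical copy, Acot1, so the split of its reads is uncertain. Hadh, Acat1, Eci1 and Eci2 had outer values of -0.015 to 0.14 and inner values of -0.18 to 0.00054. Acot13, a thioesterase, was the only one of the 42 whose control groups did not overlap: control mice 6 to 10 were at 19.5, 25.1, 20.5, 12.6 and 19.9 CPM and control mice 1 to 5 at 30.1, 25.3, 26.7, 34.9 and 31.5 CPM, as for 2.67% of all genes in that direction.

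**Figure D3:**
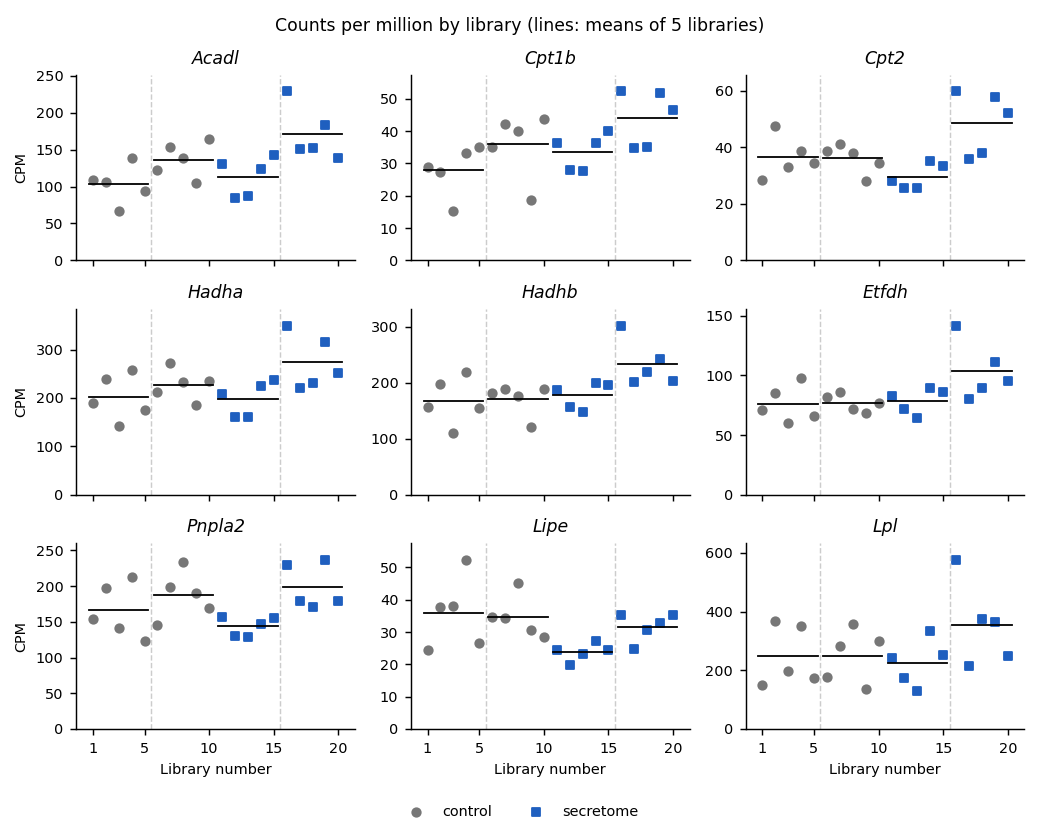
CPM of 9 genes in each library, by library number, with control mice as gray circles, secretome mice as blue squares, dashed lines between libraries 5 and 6 and 15 and 16, and a bar at the mean of each 5 libraries. Lipe is lower in libraries 11 to 15 than in 6 to 10 without overlap, and library 16 (secretome mouse 6) is the highest for Acadl, Cpt1b, Cpt2, Hadha, Hadhb, Etfdh and Lpl.

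The region upstream of the start is shown for 4 genes on which these results turn: Hadhb, whose region is shared with Hadha, Acadl, the gene past the false discovery rate, Etfdh, and Pnpla2, the lipase with the largest difference between the comparisons. Acadm is added because its region holds a nuclear receptor half-site. The sequences are RefSeq's for GRCm38.p6, cover the 250 bases before each start and are written in the direction of transcription, with motif matches in capitals.
Hadhb (chr5:30155003-30155252, plus strand): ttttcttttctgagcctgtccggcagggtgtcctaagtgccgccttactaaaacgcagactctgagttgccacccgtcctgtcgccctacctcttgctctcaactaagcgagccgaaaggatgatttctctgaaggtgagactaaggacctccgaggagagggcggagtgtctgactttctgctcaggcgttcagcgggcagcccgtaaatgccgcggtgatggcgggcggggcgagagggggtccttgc
Acadl (chr1:66863310-66863559, minus strand): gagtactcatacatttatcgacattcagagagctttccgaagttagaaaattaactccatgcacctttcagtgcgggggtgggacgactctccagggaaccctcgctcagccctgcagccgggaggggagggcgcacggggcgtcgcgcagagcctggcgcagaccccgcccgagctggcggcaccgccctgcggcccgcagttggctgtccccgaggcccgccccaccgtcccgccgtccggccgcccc
Etfdh (chr3:79628768-79629017, minus strand): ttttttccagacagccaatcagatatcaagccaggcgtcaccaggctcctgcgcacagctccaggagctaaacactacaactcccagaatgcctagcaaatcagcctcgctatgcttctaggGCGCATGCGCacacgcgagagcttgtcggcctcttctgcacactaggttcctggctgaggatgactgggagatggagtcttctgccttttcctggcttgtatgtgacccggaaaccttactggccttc
Acadm (chr3:153944644-153944893, minus strand): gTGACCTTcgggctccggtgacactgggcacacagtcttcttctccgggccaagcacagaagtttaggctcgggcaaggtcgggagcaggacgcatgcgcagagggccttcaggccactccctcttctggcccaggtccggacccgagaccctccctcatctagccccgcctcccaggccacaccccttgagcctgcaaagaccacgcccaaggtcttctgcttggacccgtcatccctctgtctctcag
Pnpla2 (chr7:141454938-141455187, plus strand): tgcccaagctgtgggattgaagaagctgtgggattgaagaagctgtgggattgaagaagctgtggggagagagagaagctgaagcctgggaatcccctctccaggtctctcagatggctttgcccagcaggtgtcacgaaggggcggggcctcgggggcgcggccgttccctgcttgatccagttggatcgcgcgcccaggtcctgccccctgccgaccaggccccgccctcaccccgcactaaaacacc
Windows of 300 bases, from 250 before to 50 after each start, were held for 34 of the 42 genes (41 windows) and 32851 windows in all. They were searched on both strands for the PPAR element (AGGTCA given 2 times with 1 base between), the nuclear receptor half-site AAGGTCA, which contains AGGTCA, and the NRF1 site (GCGCA followed at once by TGCGC). The PPAR element was in 0 windows of the 34 genes and in 0.0396% of all windows. Only exact matches were searched, and 13 of the 32851 windows held one. A count of 0 in 41 windows therefore cannot show that these genes lack PPAR elements. Cpt1b and Lpl were among the genes without a window. The half-site was in windows of 3 of the 34 genes (Acacb, Acadm and Acsl6) and in 4.72% of all windows. In Acadm it lies on the opposite strand from base -249 to base -243, counted from the start as 0. The NRF1 site was in windows of 2 genes (Etfdh, from base -128 to base -119, and Acad10) and in 0.971% of all windows.

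Peroxisomal genes differed little between treatments, and none passed the false discovery rate in any test by edgeR. The 4 had a median log2 fold change of 0.030 over all 20 libraries, -0.13 in the inner and 0.16 in the outer comparison, where all 4 were positive and 1, Acad11, had an unadjusted p below 0.05. Crot, which makes acylcarnitines for export from the peroxisome, had the smallest p of the step over all 20 libraries (adjusted p 0.616 by edgeR) and was at 34.4 ± 11.4 CPM in controls and 38.7 ± 5.35 CPM in secretome mice (SD, n = 10 each). It was higher than the control median in 8 of 10 secretome mice, and its lowest value, 14.7 CPM, was that of control mouse 2. Acad11, a dehydrogenase of the same family as Acadl, was steady, at 43.2 to 68.7 CPM in controls and 52.7 to 69.7 CPM in secretome mice, with an outer log2 fold change of 0.24 ± 0.11 (SE) and an adjusted p of 0.206 by edgeR. Hsd17b4, the multifunctional enzyme of peroxisomal oxidation, had the most CPM per kilobase of the 4, at 13.1, and an outer log2 fold change of 0.18 ± 0.16. Ehhadh, the other multifunctional enzyme, was at 6.52 ± 1.161 and 6.51 ± 1.03 CPM.

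The count of the 42 genes above their own median differed between libraries, from 4 to 38. Secretome mouse 6 was above the median of the 20 libraries in 38 of the 42 genes and secretome mouse 9 in 34. Secretome mouse 8 and control mouse 4 were above it in 33, and control mice 2 and 7 and secretome mouse 10 in 30. Secretome mouse 2 was above it in 4 genes, control mice 1 and 3 in 7 and control mouse 5 in 9. Control mice 1 to 5 held both high and low libraries, and control mice 6 to 10 lay between them, at 17 to 30 genes. For the mitochondrial oxidation genes the median deviation from the mean log2 CPM was 0.65 in secretome mouse 6 and 0.46 in secretome mouse 9. It was 0.33 in control mouse 2, -0.43 in control mouse 3 and -0.38 in secretome mouse 2. Steps of a library could differ: activation was at -0.58 in control mouse 2. In control mouse 8 lipolysis was at 0.45 and oxidation at -0.12.

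**Figure D4:**
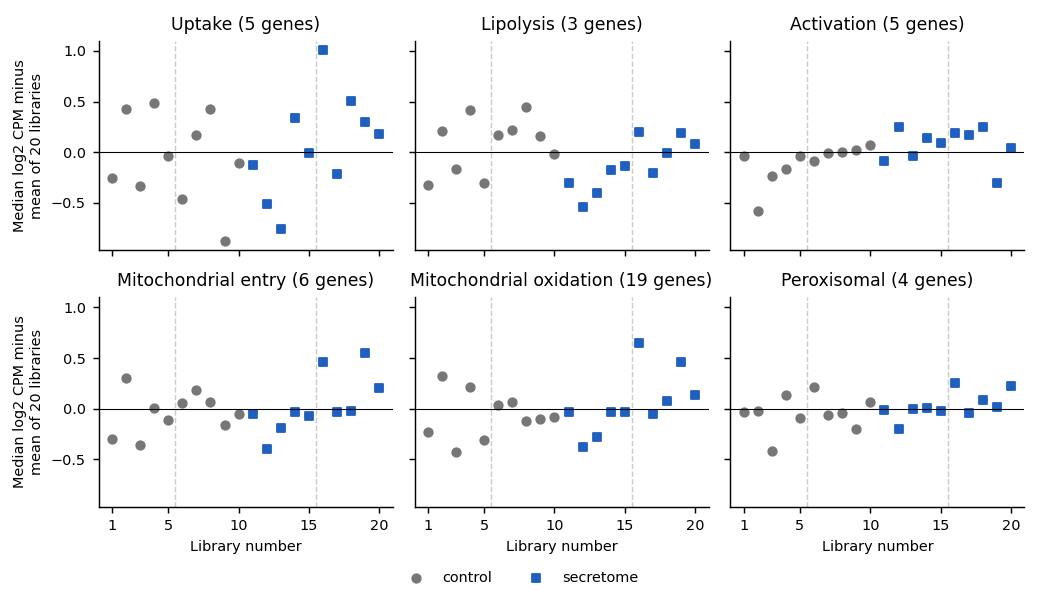
Median deviation of each step's genes from their mean log2 CPM over the 20 libraries, by library number, with control mice as gray circles, secretome mice as blue squares and dashed lines between libraries 5 and 6 and 15 and 16. Libraries 16 and 19 (secretome mice 6 and 9) are high for entry and oxidation, as is library 2 (control mouse 2). Lipolysis is below 0 in libraries 11 to 15, and also in libraries 1, 3, 5, 10, 17 and 18.

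Markers of fiber type varied widely between libraries. The 8 slow or IIa fiber markers, such as Myh2 and Myh7, were all lower in the inner comparison (median log2 fold change -2.60) and all higher in the outer one (median 0.71), with 0 past the 5% false discovery rate and a smallest adjusted p of 0.789 and 0.537 by edgeR. Their summed level was 116 to 1748 CPM in control mice 1 to 5, 157 to 2341 CPM in control mice 6 to 10, 382 to 784 CPM in secretome mice 1 to 5 and 306 to 2371 CPM in secretome mice 6 to 10. Myh2 was at 1670 CPM in control mouse 2, 2161 CPM in secretome mouse 6 and 1947 CPM in secretome mouse 9, all with 30 or more of the 42 genes above the median, and at 52.6 CPM in control mouse 1 and 82.4 CPM in control mouse 3, both with 7. Secretome mouse 8 had 1492 CPM of Myh2 and control mouse 4 had 1075 CPM, both with 33. Control mouse 5 had 229 CPM with 9, and secretome mouse 2 had 315 CPM with 4. Secretome mouse 3 had 331 CPM with 11, and secretome mouse 7 had 233 CPM with 15. Some other libraries did not share this order. Control mouse 10 had 2099 CPM of Myh2 with 21 of the 42 above the median, and control mouse 9 had 939 CPM with 17. Control mouse 6 had 87.9 CPM with 24, control mouse 7 had 399.7 CPM with 30 and secretome mouse 10 had 384 CPM with 30. Myh2 made up 1670 of the 1748 CPM summed in control mouse 2. Myh7 was at 1.74, 17.7 and 1.94 CPM in control mouse 2 and secretome mice 6 and 9. It was at 72.9 CPM in control mouse 5 (9 of the 42), 248 CPM in control mouse 8 (21) and 215 CPM in secretome mouse 8 (33). In control mice 1 and 3 Myh7 was at 0.107 and 0.45 CPM. Of the 8 markers of IIb or IIx fibers, 4 were positive and 4 negative in both comparisons (medians -0.044 inner and 0.058 outer). Myh4 had an outer log2 fold change of 0.76 ± 0.19 (adjusted p 0.031 by edgeR). It was at 17930 to 38350 CPM in control mice 1 to 5 and 38340 to 58170 CPM in secretome mice 6 to 10. In control mice 6 to 10 it was at 34780 to 57230 CPM, and in secretome mice 1 to 5 at 43940 to 54740 CPM. Of the 8 general myofiber markers 6 were negative in the inner and 7 positive in the outer comparison (medians -0.12 and 0.24). The difference was positive for all 8 (median 0.37). Ttn had an outer log2 fold change of 0.86 ± 0.15. Its share of the counts led to these comparisons, so no p is given for it. Ttn was at 57930 to 106000 CPM in control mice 1 to 5 and 133000 to 162300 CPM in secretome mice 6 to 10. In control mice 6 to 10 it was at 154600 to 227500 CPM, and in secretome mice 1 to 5 at 178300 to 221100 CPM. The 6 fibroblast markers summed to 676 to 978 CPM in control mice 1 to 5, 176 to 427 CPM in control mice 6 to 10, 270.3 to 384 CPM in secretome mice 1 to 5 and 457 to 599.6 CPM in secretome mice 6 to 10, so in the outer comparison all 6 were negative. The part of fiber type, myofiber and fibroblast markers in the values of the 42 genes was not tested.

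**Figure D5:**
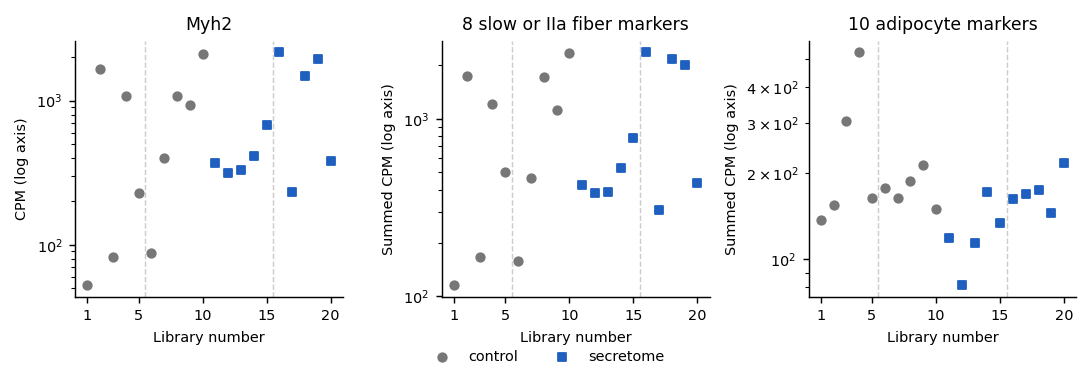
Myh2 and the summed CPM of 8 slow or IIa fiber markers and of 10 adipocyte markers in each library, on log axes, with control mice as gray circles, secretome mice as blue squares and dashed lines between libraries 5 and 6 and 15 and 16. Libraries 16, 10, 19 and 2 are the 4 highest for Myh2, at 2161, 2099, 1947 and 1670 CPM, and libraries 11 to 15 lie between 315 and 679 CPM.

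Beyond the 42, 80 of 88 listed genes of neighboring steps were tested. Over all 20 libraries 6 were higher and 8 lower at an unadjusted p below 0.05 (6.52% and 9.21% of all genes) and 0 passed the 5% false discovery rate by edgeR. In the inner comparison 1 was higher and 6 lower (2.43% and 3.34% of all genes), with 0 past the rate. In the outer comparison 14 were higher and 5 lower (9.56% and 11.6% of all genes), with 3 past the rate (3.68% of all genes), of which the following 2 are described. Oxct1, which lets muscle burn ketone bodies, rose by 0.64 ± 0.14 (SE) on the log2 scale in the outer comparison (adjusted p 0.0220 by edgeR), from 208 ± 31.1 to 323 ± 72.7 CPM (SD, n = 5 each). Fads2, a desaturase of fatty acid synthesis, fell by 1.18 ± 0.27 on the log2 scale in the outer comparison (adjusted p 0.0239), at a low level of 3.06 ± 0.789 against 1.35 ± 0.346 CPM. In the inner comparison Oxct1 and Fads2 had log2 fold changes of 0.075 ± 0.14 and -0.31 ± 0.27, with adjusted p of 0.902 and 0.805 by edgeR.

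By list, 9 lipid droplet genes had a median log2 fold change of -0.39 in the inner and 0.15 in the outer comparison, and Plin1, the droplet coat protein of adipocytes, had the smallest p of them over all 20 libraries, at -0.68 ± 0.33 (SE; adjusted p 0.318 by edgeR). The 9 triglyceride synthesis genes had medians of -0.14 and 0.20, with Gpam at 0.18 ± 0.11 over all 20 libraries. The 9 uptake partners had medians of -0.20 and 0.061. Vldlr, a lipoprotein receptor, had the same sign in both, at 0.38 ± 0.17 and 0.33 ± 0.17, and was at 358 ± 79.99 CPM in controls and 457 ± 98.6 CPM in secretome mice (SD, n = 10 each; adjusted p 0.205 by edgeR). The 4 carnitine supply genes included Cpt1c, at -0.50 ± 0.20 over all 20 libraries, and the 14 peroxisomal partners Abcd3, the importer of branched and dicarboxylic acyl-CoA, at 0.32 ± 0.11.

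The 15 regulators had medians of -0.042 in the inner and 0.15 in the outer comparison, with 5 higher in the latter at an unadjusted p below 0.05 and 0 past the false discovery rate by edgeR. Prkaa2, the muscle catalytic subunit of AMP-activated kinase, was at 375 ± 97.3 CPM in controls and 475 ± 50.4 CPM in secretome mice (SD, n = 10 each), a log2 fold change of 0.34 ± 0.13 with an adjusted p of 0.232 by edgeR. The 6 fasting targets were all lower in the inner comparison (median -0.55), and 2 were higher in the outer one (median -0.28). Ucp2, an uncoupling protein also abundant in immune cells, was at 15.8 ± 2.74 CPM in control mice 6 to 10 and 8.57 ± 1.18 CPM in secretome mice 1 to 5 (SD, n = 5 each), a log2 fold change of -0.89 ± 0.24 with an adjusted p of 0.789 by edgeR. The 8 macrophage markers were also all lower there (summed level 47.1 to 114 against 36.6 to 49.0 CPM), and their part in the value of Ucp2 was not tested.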

How the data were processed

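RNA from 20 quadriceps muscles, 10 of each treatment, was sequenced from directional, ribosome-depleted libraries. The authors deposited whole-number counts of reads per gene, 1 column per mouse and not normalized. The submitters' processing notes name cutadapt 1.16, STAR 2.7.9a, featureCounts 1.6.3, DESeq2 1.34.0 and GRCm39 (mm39). Columns were matched to mice by title. Gene names and exon lengths came from GENCODE M21, which is on another build (GRCm38), so no coordinates were carried between them.

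Genes were filtered with filterByExpr and scaled by TMM in edgeR 4.0.16 (R 4.3.3). Treatment was tested with the robust quasi-likelihood test, over all 20 libraries and in a fit of 4 sets of 5 libraries that gave the inner, outer and difference tests, with Benjamini-Hochberg adjustment over 14471 genes at 5%. The study's own method, DESeq2 (1.42.0 here), was an alternative, as were limma-voom 3.58.1, RLE scaling, no filter, removal of Ttn and mitochondrial genome genes, only the 10 libraries of a contrast, the replicate number as a block and leaving out each mouse. The edgeR test was checked on simulated counts with known changes.

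The 42 genes, the lists and the division by library number were chosen with earlier results of these data known. Genes were named by rule: per step, the 2 (oxidation, 4) with the smallest p over all 20 libraries and the 2 (oxidation, 4) for the difference, the most abundant per kilobase, any gene past the false discovery rate, and 1 per related list. The remaining genes of the 42 are given as values, as are the adipocyte, macrophage, fibroblast, myofiber and fiber type markers. Marker lists of endothelial, neutrophil, erythroid, Schwann and satellite cells were also examined and are not described here. The replicate numbers did not pair the mice: over 10 pairs the correlation of deviations was -0.24 to 0.221, over 0.1 in 2. The mice are separate animals, and p-values set a difference against the spread between them. In the inner, outer and difference tests that spread was estimated over all 4 sets of 5 libraries together. The tissue is whole muscle, and the extraction text names myotubes. Tmlhe was not analysed here, and 1 gene of the related lists is not reported here.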

Additional observations from a re-analysis of the deposited data

Results flagged for a closer look

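A value stood apart when its gap to the nearest mouse of its group, divided by the range of the group, was above Dixon's 95% critical value for 10 samples. Of 84 groups examined, 4 were singled out, and chance alone gives about 4.2. Acsl4 was low in secretome mouse 9, at 4.88 log2 CPM. Hadh and Eci1 were high in control mouse 2, at 7.2 and 6.38 log2 CPM, and Acat1 was high in secretome mouse 6, at 7.37 log2 CPM. Control mouse 2 and secretome mouse 6 are also among the mice with the most of the 42 genes above the median, 30 and 38.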

How the results depend on the processing

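Of 2704 alternative values for the named genes, 2633 kept their direction and side of the threshold, 58 changed sign without having been called, and 13 changed side. Of these, 6 were losses of Acadl in the outer comparison as given above, and 7 were gains: Cpt1b, Etfdh and, for the difference, Acadl with DESeq2, and in the outer comparison Acacb and Acadvl without control mouse 2, Decr1 without control mouse 4 and Cpt1b without control mouse 9. RLE scaling and removal of Ttn and mitochondrial genome genes changed no count by over 1.5 times. Counts past the 5% false discovery rate were sensitive to the tool. DESeq2 gave 216 genes over all 20 libraries (1 by edgeR), 1148 in the outer comparison (532) and 186 for the difference (8), with 3 of the 42 in the outer comparison (1) and 1 for the difference (Acadl). Without the filter there were 216 outer genes and 2 for the difference. With voom there were 3 over all 20 libraries and 149 for the difference, and 0 of the 42 in the outer comparison. At an unadjusted p below 0.05 voom gave 1 of the 42 higher over all 20 libraries (3 by edgeR), and 1 higher and 6 lower in the inner comparison (0 and 3). With only the 10 libraries of a contrast, 1 was higher and 7 lower in the inner comparison, 9 were higher in the outer (14), and 0 of the 42 and 0 of all genes passed the rate there. The replicate block, possible only over all 20 libraries, gave 0 genes (1 without it), and no mouse correlated best with its own number.

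Leaving out each mouse gave 0 to 15 genes past the rate over all 20 libraries, 0 to 0 inner, 72 to 823 outer and 1 to 9 for the difference. Of the 42, 0 to 4 passed in the outer comparison and 0 to 0 in the other tests. At an unadjusted p below 0.05, 0 to 4 were higher and 1 to 2 lower over all 20 libraries, 0 to 1 and 1 to 4 inner, 6 to 22 and 0 to 1 outer, and 7 to 22 and 0 to 0 for the difference. Median log2 fold changes ranged over 0.00087 to 0.096, -0.20 to -0.077, 0.16 to 0.35 and 0.32 to 0.50 in the same order. The cause of these shifts was not tested. With 5 mice a group, the inner comparison called 0 genes, so a gene not called there was not shown to be unchanged.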
